A study of Homo sapiens with 15 samples.

Results

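The 34 genes described here encode enzymes that make deoxynucleotides and proteins that license, open and copy replication origins. They were chosen by name and function, as a list of replication and nucleotide synthesis genes, by a rule that uses no measured value. Each symbol was matched to its Ensembl identifier, and all 34 were found among the 60721 gene identifiers of the count table. All 34 also passed the filter on low counts, which left 17457 genes for testing.

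RNA carrying a poly(A) tail was sequenced from MCF10 cells, a non-tumorigenic human breast epithelial line, in 15 libraries of 5 genotypes with 3 biological replicates each. The genotypes were parental cells, cells carrying an empty vector, and 3 lines with mutant NF1, made with guide RNA 1, with guide RNA 2, or with guide RNAs 1 and 2 together. The NF1 product, neurofibromin, speeds GTP hydrolysis by RAS and so holds RAS signalling down. No group was treated, and all were grown in one medium with horse serum, EGF, hydrocortisone, cholera toxin and insulin, so a growth factor that activates RAS was present throughout. The labels do not say whether a line is a clone or a pool, nor whether replicates came from separate cultures, so the p-values measure the spread between these samples.

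The libraries held 46129559 to 78976917 counts. NF1 stood at 26.0 to 51.3 CPM (the gene's counts scaled to the library total) in the 9 edited libraries and at 115 to 159 CPM in the 6 unedited ones. Within genotypes, guide 1 replicate 3 and guide 2 replicate 2 stood apart in the replication genes, and parental replicate 1 did so in some of them. Results are given with and without these 3 libraries. All 6 basal epithelial markers had counts in every library, with a summed level of 1228 to 9503 CPM. Only 5 reached 1 CPM in the guide 1 libraries, guide 2 replicates 1 and 3 and parental replicate 2. Of 3 general epithelial markers, 2 reached it in the guide 1 libraries and guide 2 replicates 1 and 3. Basal marker levels moved with some libraries, as given beside the results they touch. The immune markers summed to at most 0.130 CPM in any library.

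Before each division a cell loads the ring-shaped MCM2-7 complex onto origins with the help of the origin recognition complex, CDC6 and CDT1, and then activates it at the start of S phase by adding CDC45 and the GINS complex. DNA polymerases alpha, epsilon and delta copy the strands, the sliding clamp PCNA and its loader RFC hold them on DNA, and FEN1 and LIG1 finish the lagging strand. Most of these genes are transcribed late in G1 under E2F control, so their mRNA levels follow the share of cycling cells in a culture. In bulk RNA, fewer cells in a phase and less RNA per cell cannot be told apart.

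Promoter sequence shows how far the genes share the letters of an E2F site. RefSeq promoters (GRCh38.p14), reaching from 250 bases before to 50 bases after the start, were found for 31 of the 34 genes. MCM4, MCM5 and GINS4 had no entry in that table. The E2F letters searched were TTTCCCGC, TTTCGCGC, TTTGCCGC and TTTGGCGC on both strands, and matches may overlap each other. They occurred in 18 of the 31 promoters (58.1%), against 5.22% of the 11751 promoters of tested genes. CCAAT, the letters bound by NF-Y, occurred on either strand in 19 of 31 (61.3%), against 36.4% of tested genes. The CHR letters TTTGAA, known from mitotic genes, occurred on either strand in 1 of 31 (3.23%), the promoter of RRM1, against 10.2% of tested genes. E2F and CCAAT letters occurred together in 10 promoters, and 4 held neither. All 4 MCM2-7 genes with an entry (MCM2, MCM3, MCM6 and MCM7) held E2F letters. A match describes the letters only, and a missing match says only that they are not in this window.

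The 160 bases before the start are printed for 7 of the genes, given by role: MCM6 and MCM7 for the helicase, PCNA and RFC3 for the clamp and its loader, CDT1 for licensing, RRM2 for nucleotide synthesis and CDC45 for helicase activation. Capitals mark E2F or CCAAT letters on either strand. MCM6 lies on the minus strand at chr2:135876444-135876603, MCM7 on the minus strand at chr7:100101398-100101557 and PCNA on the minus strand at chr20:5126623-5126782. RFC3 lies on the plus strand at chr13:33817989-33818148, CDT1 on the plus strand at chr16:88803629-88803788, RRM2 on the plus strand at chr2:10122579-10122738 and CDC45 on the plus strand at chr22:19479760-19479919.
MCM6: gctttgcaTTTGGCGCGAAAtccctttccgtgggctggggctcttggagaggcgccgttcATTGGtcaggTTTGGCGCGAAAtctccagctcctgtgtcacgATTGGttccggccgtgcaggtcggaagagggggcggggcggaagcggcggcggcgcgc
MCM7: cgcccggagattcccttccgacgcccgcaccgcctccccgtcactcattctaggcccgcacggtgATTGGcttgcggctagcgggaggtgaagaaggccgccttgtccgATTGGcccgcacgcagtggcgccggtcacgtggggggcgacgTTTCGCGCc
PCNA: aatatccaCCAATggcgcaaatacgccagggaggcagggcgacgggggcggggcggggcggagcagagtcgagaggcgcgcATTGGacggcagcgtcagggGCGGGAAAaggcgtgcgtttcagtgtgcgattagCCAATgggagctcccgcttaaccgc
RFC3: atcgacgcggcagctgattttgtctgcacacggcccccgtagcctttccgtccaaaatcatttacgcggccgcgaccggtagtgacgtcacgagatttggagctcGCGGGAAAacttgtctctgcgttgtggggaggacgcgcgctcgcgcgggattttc
CDT1: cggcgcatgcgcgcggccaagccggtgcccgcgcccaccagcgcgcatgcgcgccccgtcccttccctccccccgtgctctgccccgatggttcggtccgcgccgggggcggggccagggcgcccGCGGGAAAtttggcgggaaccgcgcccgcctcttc
RRM2: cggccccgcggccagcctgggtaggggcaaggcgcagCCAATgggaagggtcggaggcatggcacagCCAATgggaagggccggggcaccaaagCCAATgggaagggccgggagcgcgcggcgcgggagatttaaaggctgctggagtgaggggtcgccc
CDC45: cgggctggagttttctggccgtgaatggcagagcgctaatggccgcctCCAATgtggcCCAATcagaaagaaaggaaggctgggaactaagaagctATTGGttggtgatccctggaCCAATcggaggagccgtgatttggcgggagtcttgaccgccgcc
MCM6 held overlapping E2F letters in 2 places, whereas RRM2 and CDC45 held CCAAT letters several times over and none of the E2F letters between 250 bases before and 50 bases after the start.

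Per kilobase of exon, the empty-vector level ran from 0.782 CPM for POLA2, a subunit of polymerase alpha, to 136 CPM for PCNA. The lowest count of any of the 34 in any library was 180 (POLA2), which carries a counting error of 7.45%, and the counting error of every other value was smaller. The 34 genes together took 2961, 2991 and 3109.6 CPM in the empty-vector libraries and 4301, 3935 and 3979 CPM in the parental libraries. They took 2686, 2586 and 4230.03 CPM with guide 1, 3837, 4529 and 3678 CPM with guide 2 and 3938, 3972 and 4054 CPM with both guides. Replication genes were thus lowest in guide 1 replicates 1 and 2, next lowest in the empty vector, and higher in the other 10 libraries. Guide 1 replicates 1 and 2 held the lowest level of 32 of the 34 genes; the exceptions were RRM1 and CDC45, lowest in empty-vector replicates 1 and 3. The highest level lay in guide 2 replicate 2 for 21 genes and in guide 1 replicate 3 for 8. The heat map of all 34 genes shows this split of guide 1 and the evenness of the 3 libraries with both guides.

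**Figure D1:**
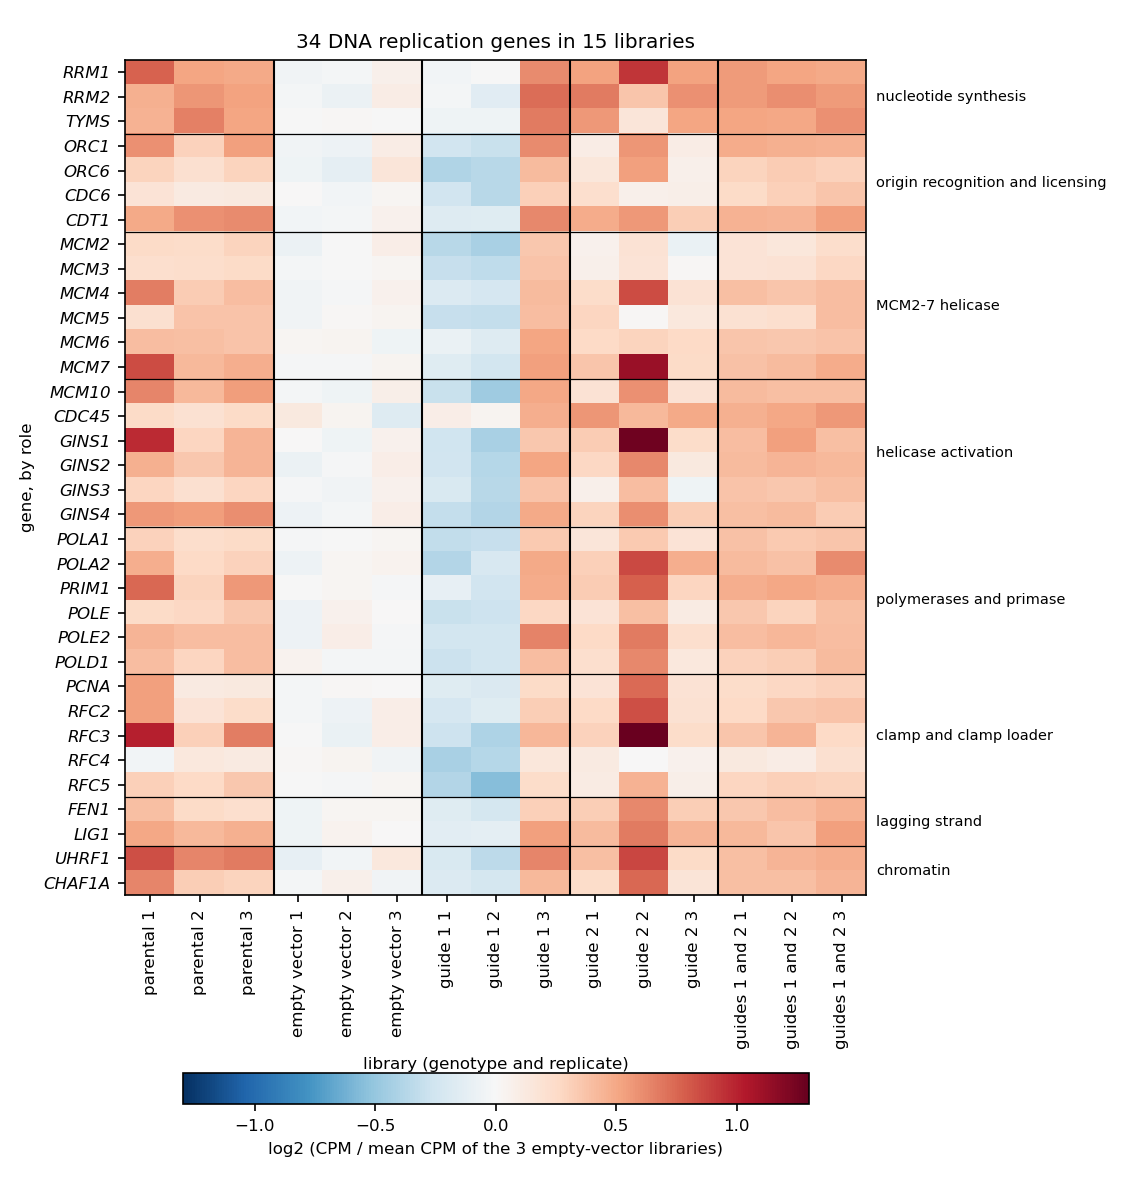
Each cell is the log2 ratio of a gene's CPM in a library to its mean over the 3 empty-vector libraries; rows are the 34 genes by role and columns the 15 libraries by genotype. Guide 1 replicates 1 and 2 are mostly blue, guide 1 replicate 3 is red in every row, and RFC3 and GINS1 are darkest in guide 2 replicate 2.

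The enzymes of deoxynucleotide synthesis are ribonucleotide reductase, with its large subunit RRM1 and its small, S-phase-limited subunit RRM2, and thymidylate synthase (TYMS). RRM1 stood at 189, 192 and 205 CPM in the empty-vector libraries and at 332, 279 and 274 CPM in the parental libraries. It stood at 191, 195 and 299.9 CPM with guide 1, at 281, 372 and 281 CPM with guide 2 and at 287, 279 and 276 CPM with both guides. All guide 2, both-guide and parental libraries lay above all empty-vector libraries, while guide 1 replicates 1 and 2 lay within the empty-vector range. RRM1 (ENSG00000167325, chr11:4094707-4138876, plus strand, GRCh38) rose with guide 2, with an edgeR log2 fold change against the empty vector of 0.66 (SE 0.158, adjusted p = 0.0368). RRM2 stood at 421, 405 and 458 CPM in the empty-vector libraries and at 588, 639 and 613 CPM in the parental libraries. It stood at 421, 387 and 706 CPM with guide 1, at 686, 551 and 645 CPM with guide 2 and at 628, 652 and 629 CPM with both guides. Here guide 1 replicate 3 was the highest of all 15 libraries and guide 1 replicate 2 the lowest. The RRM2 fold changes were 0.54 with guide 2, 0.55 with both guides and 0.49 in parental cells on the log2 scale, and none passed the test (edgeR adjusted p from 0.109 to 0.160). The RRM1 call with guide 2 was lost with the replicate block (edgeR adjusted p = 0.0728). It was also lost when the fit held just the compared groups (edgeR adjusted p = 0.144). The same RRM1 call held in 5 of 15 fits that each left out 1 library, with edgeR adjusted p from 0.00540 to 0.135. TYMS stood at 143, 145 and 142 CPM in the empty-vector libraries and at 196, 226 and 205 CPM in the parental libraries. It stood at 138, 138 and 229 CPM with guide 1, at 212, 160.1 and 204 CPM with guide 2 and at 205, 203 and 216 CPM with both guides. The empty-vector libraries of TYMS were nearly equal, and guide 2 replicate 2 was the lowest of its genotype. TYMS shares 46.6% of its exon bases with the neighbouring genes TYMSOS and ENOSF1 and RRM2 shares 20.2% with another gene; whether strand was used in counting is not given in the sources used here, so part of these counts could belong to neighbours.

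Origin recognition and licensing is represented by ORC1 and ORC6, subunits of the origin recognition complex, by CDC6, the ATPase that joins it, and by CDT1, which brings the MCM ring. ORC1 stood at 28.9, 28.5 and 31.9 CPM in the empty-vector libraries and at 44.9, 36.6 and 43.04 CPM in the parental libraries. It stood at 25.1, 24.3 and 45.4 CPM with guide 1, at 31.8, 44.3 and 31.7 CPM with guide 2 and at 41.5, 40.9 and 40.8 CPM with both guides. ORC1 was even across the both-guide libraries, whereas guide 2 replicates 1 and 3 lay within the empty-vector range and replicate 2 above it. CDC6 stood at 97.02, 94.1 and 98.2 CPM in the empty-vector libraries and at 109, 105 and 105 CPM in the parental libraries. It stood at 81.3, 75.4 and 119 CPM with guide 1, at 112, 101 and 102 CPM with guide 2 and at 114, 119 and 124 CPM with both guides. The both-guide libraries of CDC6 lay above every other library except guide 1 replicate 3, with a log2 fold change of 0.28 against the empty vector (edgeR adjusted p = 0.350). CDT1 stood at 28.9, 29.2 and 30.8 CPM in the empty-vector libraries and at 41.7, 44.8 and 45.2 CPM in the parental libraries. It stood at 26.3, 26.6 and 45.6 CPM with guide 1, at 41.5, 43.6 and 36.9 CPM with guide 2 and at 40.5, 40.2 and 42.9 CPM with both guides. For CDT1 the guide 2, both-guide and parental libraries all lay above the empty vector, with log2 fold changes of 0.44, 0.46 and 0.54 that did not pass the test (edgeR adjusted p = 0.158, 0.217 and 0.0842). ORC6 ran from 27.2 to 51.7 CPM over the 15 libraries.

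The 6 subunits of the MCM2-7 helicase, the ring that unwinds DNA, summed to 944, 964 and 986 CPM in the empty-vector libraries and to 829, 802 and 1302 CPM with guide 1. They summed to 1119, 1446 and 1064 CPM with guide 2, 1188, 1184 and 1243 CPM with both guides and 1364, 1211 and 1241 CPM in parental cells. Their log2 fold changes against the empty vector ran from 0.04 (MCM2) to 0.62 (MCM7) with guide 2, from 0.16 (MCM2) to 0.40 (MCM7) with both guides and from 0.20 (MCM3) to 0.56 (MCM7) in parental cells. MCM2 stood at 109, 114 and 122 CPM in the empty-vector libraries and at 137, 136 and 140.3 CPM in the parental libraries. It stood at 89.5, 86.3 and 147 CPM with guide 1, at 119.9, 131 and 108 CPM with guide 2 and at 129.8, 127 and 135 CPM with both guides. MCM2 with guide 2 overlapped the empty vector, and the 3 both-guide libraries lay above it by a small margin. MCM2 shares 23.6% of its exon bases with other genes. Over the 15 libraries MCM3 ran from 155 to 252 CPM, MCM4 from 218 to 455 CPM, MCM5 from 72.2 to 119 CPM and MCM6 from 122 to 194 CPM. MCM7 stood at 174, 174 and 179.6 CPM in the empty-vector libraries and at 317, 235 and 243 CPM in the parental libraries. It stood at 157, 149 and 255 CPM with guide 1, at 225, 383 and 209 CPM with guide 2 and at 229, 233 and 246 CPM with both guides. MCM7 separated guide 2 replicate 2 and parental replicate 1 from all other libraries, and its fold change with guide 2, 0.62 (SE 0.227, adjusted p = 0.157) by edgeR, did not pass the test.

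Helicase activation needs CDC45 and the 4 GINS subunits, which complete the active helicase, and MCM10, which acts as it fires. CDC45 stood at 46.97, 44.2 and 38.3 CPM in the empty-vector libraries and at 51.4, 49.5 and 51.3 CPM in the parental libraries. It stood at 45.95, 44.2 and 59.9 CPM with guide 1, at 64.1, 57.7 and 60.6 CPM with guide 2 and at 59.4, 61.1 and 63.8 CPM with both guides. All 3 guide 2 and all 3 both-guide libraries of CDC45 lay above all 6 unedited libraries. CDC45 (ENSG00000093009, on chromosome 22, GRCh38) rose in both of these lines against the empty vector, by 0.48 (SE 0.105, adjusted p = 0.0242) with guide 2 and by 0.49 (SE 0.105, adjusted p = 0.0472) with both guides on the log2 scale in edgeR. The both-guide call was lost without a filter on low counts (edgeR adjusted p = 0.0689) and with the replicate block (0.1004), and held in 3 of 15 fits that each left out 1 library (edgeR adjusted p from 0.00635 to 0.229). The guide 2 call was lost with only the compared groups in the fit (0.149) and held in 11 of 15 such fits (edgeR adjusted p from 0.00373 to 0.131). With guide 1 its fold change was 0.20 (SE 0.105, adjusted p = 0.285) and in parental cells 0.20 (SE 0.105, adjusted p = 0.307), neither past the edgeR threshold. MCM10 stood at 49.8, 48.99 and 53.5 CPM in the empty-vector libraries and at 78.7, 68.1 and 74.01 CPM in the parental libraries. It stood at 41.6, 36.96 and 71.98 CPM with guide 1, at 57.7, 76.8 and 57.6 CPM with guide 2 and at 67.4, 66.6 and 66.4 CPM with both guides. MCM10 was highest in parental replicate 1 and lowest in guide 1 replicate 2. GINS2 stood at 29.3, 30.4 and 32.8 CPM in the empty-vector libraries and at 42.5, 39.5 and 41.9 CPM in the parental libraries. It stood at 25.9, 23.9 and 44.2 CPM with guide 1, at 37.1, 47.5 and 33.7 CPM with guide 2 and at 40.9, 41.8 and 41.2 CPM with both guides. GINS2 with guide 1 spanned from below the empty vector to near the top of all libraries. GINS1 showed a wider spread: 43.9, 84.2 and 41.4 CPM with guide 2 and 68.7, 42.6 and 47.6 CPM in parental cells, against 35.1, 33.7 and 36.3 CPM in the empty vector. GINS3 ran from 17.3 to 29.3 CPM and GINS4 from 26.01 to 51.4 CPM over the 15 libraries, and neither passed the edgeR test in any of the 11 comparisons. GINS4 shares 23.6% of its exon bases with other genes.

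Among the polymerases, POLA1 is the catalytic subunit of polymerase alpha, which starts each strand with the primase PRIM1, and POLE2 is a subunit of the leading-strand polymerase epsilon. POLA1 stood at 48.7, 48.9 and 49.97 CPM in the empty-vector libraries and at 60.6, 57.4 and 58.5 CPM in the parental libraries. It stood at 39.3, 39.9 and 62.04 CPM with guide 1, at 54.99, 62.3 and 55.7 CPM with guide 2 and at 63.9, 62.1 and 63.3 CPM with both guides. The 3 both-guide libraries of POLA1 were close together and all above the unedited libraries. POLE2 stood at 13.5, 15.1 and 14.05 CPM in the empty-vector libraries and at 19.3, 18.8 and 18.8 CPM in the parental libraries. It stood at 12.1, 12.1 and 22.2 CPM with guide 1, at 17.001, 22.8 and 16.6 CPM with guide 2 and at 18.8, 19.1 and 18.8 CPM with both guides. POLE2 in guide 1 replicate 3 and guide 2 replicate 2 stood above every other library. Over the 6 polymerase and primase genes, which also include POLA2, POLE and the polymerase delta subunit POLD1, all 3 libraries lay above all 3 empty-vector libraries in 6 of 6 genes with guide 2, both guides and parental cells alike, where 12.2%, 20.5% and 18% of tested genes did so. Over the 15 libraries POLA2 ran from 3.45 to 8.10 CPM, PRIM1 from 11.7 to 23.8 CPM, POLE from 73.96 to 119 CPM and POLD1 from 34.004 to 63.6 CPM. POLA2 shares 35.1% and PRIM1 21.6% of their exon bases with other genes.

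PCNA forms the clamp that tethers polymerases, and RFC2 to RFC5 are the small subunits of the loader that opens it. PCNA stood at 197, 203 and 201 CPM in the empty-vector libraries and at 290.3, 217 and 218 CPM in the parental libraries. It stood at 179.96, 175 and 239 CPM with guide 1, at 226, 334 and 228 CPM with guide 2 and at 236, 242 and 247 CPM with both guides. PCNA stood higher in guide 2 replicate 2 and parental replicate 1 than in their own replicates, and the remaining libraries with guide 2 lay close to those with both guides. RFC3 stood at 37.1, 35.1 and 39.6 CPM in the empty-vector libraries and at 75.2, 46.2 and 58.97 CPM in the parental libraries. It stood at 30.9, 28.3 and 50.2 CPM with guide 1, at 45.9, 90.6 and 43.9 CPM with guide 2 and at 48.02, 50.5 and 44.5 CPM with both guides. RFC3 had among the widest spreads within a genotype, so a guide 2 fold change of 0.67 (SE 0.273, adjusted p = 0.200) did not pass the edgeR test. RFC4, of the same complex, stood at similar levels in these genotypes: 49.6, 45.9 and 47.7 CPM with guide 2 and 44.6, 50.3 and 49.7 CPM in parental cells, against 46.2, 46.8 and 44.3 CPM in the empty vector. RFC2 ran from 41.1 to 84.99 CPM and RFC5 from 23.6 to 47.2 CPM over the 15 libraries. RFC4 and RFC5 had the lowest guide 1 fold changes of all 34 genes, -0.20 and -0.20 (edgeR adjusted p = 0.358 and 0.499).

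FEN1 cuts the flap of an Okazaki fragment and LIG1 seals the nick. FEN1 stood at 84.2, 89.3 and 89.5 CPM in the empty-vector libraries and at 115, 104 and 102 CPM in the parental libraries. It stood at 78.5, 74.8 and 108 CPM with guide 1, at 109, 135 and 109 CPM with guide 2 and at 111, 116 and 120.2 CPM with both guides. FEN1 lay above the empty vector in every guide 2, both-guide and parental library. LIG1 stood at 41.3, 44.6 and 43.3 CPM in the empty-vector libraries and at 61.02, 57.7 and 59.5 CPM in the parental libraries. It stood at 39.1, 39.3 and 62.2 CPM with guide 1, at 57.5, 68.9 and 58.7 CPM with guide 2 and at 57.8, 55.2 and 62.5 CPM with both guides. LIG1 showed the same separation, and guide 2 gave log2 fold changes of 0.41 (SE 0.123, adjusted p = 0.0829) for FEN1 and 0.50 (SE 0.144, adjusted p = 0.0734) for LIG1 in edgeR.

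CHAF1A is the large subunit of the factor that deposits histones behind the fork, and UHRF1 brings the maintenance methyltransferase to newly copied DNA. CHAF1A stood at 56.6, 60.3 and 55.5 CPM in the empty-vector libraries and at 89.2, 71.9 and 70.2 CPM in the parental libraries. It stood at 50.8, 49.1 and 76.9 CPM with guide 1, at 67.7, 96.8 and 64.8 CPM with guide 2 and at 75.5, 75.1 and 78.2 CPM with both guides. UHRF1 stood at 106, 112 and 126 CPM in the empty-vector libraries and at 206, 178 and 183 CPM in the parental libraries. It stood at 100.3, 90.5 and 178 CPM with guide 1, at 151, 209 and 137 CPM with guide 2 and at 150.03, 156 and 159 CPM with both guides. Both were higher in guide 2 replicate 2 than in any other library. UHRF1 had the highest parental fold change of the 34, 0.69 (SE 0.213, adjusted p = 0.0880) in edgeR.

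**Figure D2:**
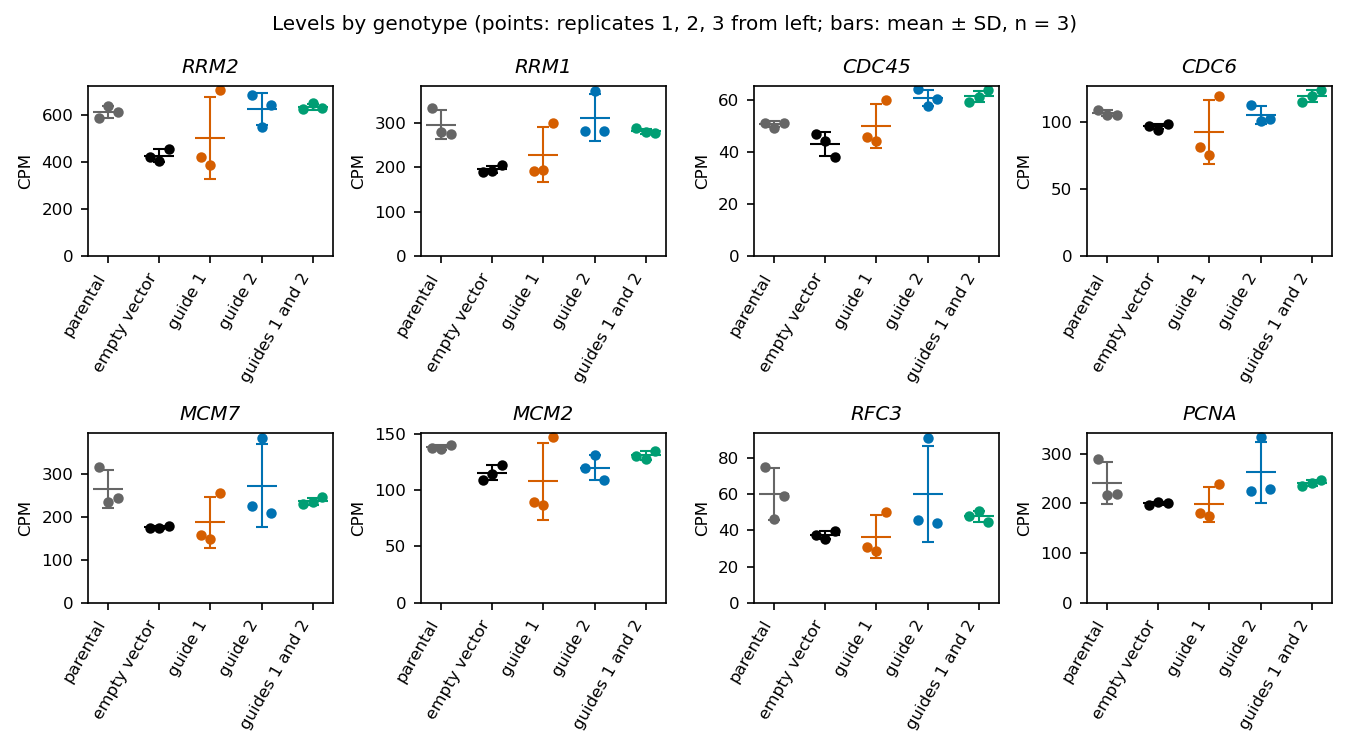
CPM of 8 replication genes in each of the 15 libraries by genotype; points are replicates 1, 2 and 3 from left, bars are the mean and SD of 3, and each axis starts at 0. The guide 1 points split into 2 low values and 1 high value in every panel, and in the RFC3, MCM7 and PCNA panels guide 2 replicate 2 is the highest point.

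Against the empty vector, few replication genes passed the test in any line, although the medians lay well above 0 in all but the guide 1 line. With guide 1, none of the 34 passed at an edgeR adjusted p under 0.05, where 5.88% of all tested genes did; 0 reached an unadjusted p under 0.05 (21.4% of tested genes) and DESeq2 called 0. Their median log2 fold change was -0.01, against 0.02 over all tested genes. With guide 2, 2 genes rose, RRM1 and CDC45, where 1.2% of all tested genes were called higher. An unadjusted edgeR p under 0.05 was reached by 18 of the 34 (18.9% of tested genes). The guide 2 median was 0.39 against 0.03 over all tested genes, and all 3 libraries lay above all 3 empty-vector libraries for 27 of the 34, where 12.2% of tested genes did so. Without guide 2 replicate 2 that median was 0.19. With both guides, 1 gene rose, CDC45, where 0.269% of tested genes were called higher. There 16 of the 34 reached an unadjusted edgeR p under 0.05 (14% of tested genes). The median there was 0.37 against -0.00 over all tested genes, and the groups did not overlap for 34 of 34 genes, where 20.5% of tested genes were higher without overlap. In parental cells 0 genes passed, where 4.37% of tested genes did. All 34 parental fold changes lay above 0, and 15 reached an unadjusted p under 0.05 (19.8% of tested genes). DESeq2 called 4, RRM1, TYMS, CDT1 and UHRF1 (10.1% of tested genes). Throughout, shares of tested genes at an unadjusted p and for DESeq2 count both directions. The parental median was 0.37 against 0.01 over all tested genes, and 33 of 34 genes lay above the empty vector without overlap, where 18% of tested genes did. All 4 comparisons draw on one set of empty-vector libraries and are not independent of each other.

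**Figure D3:**
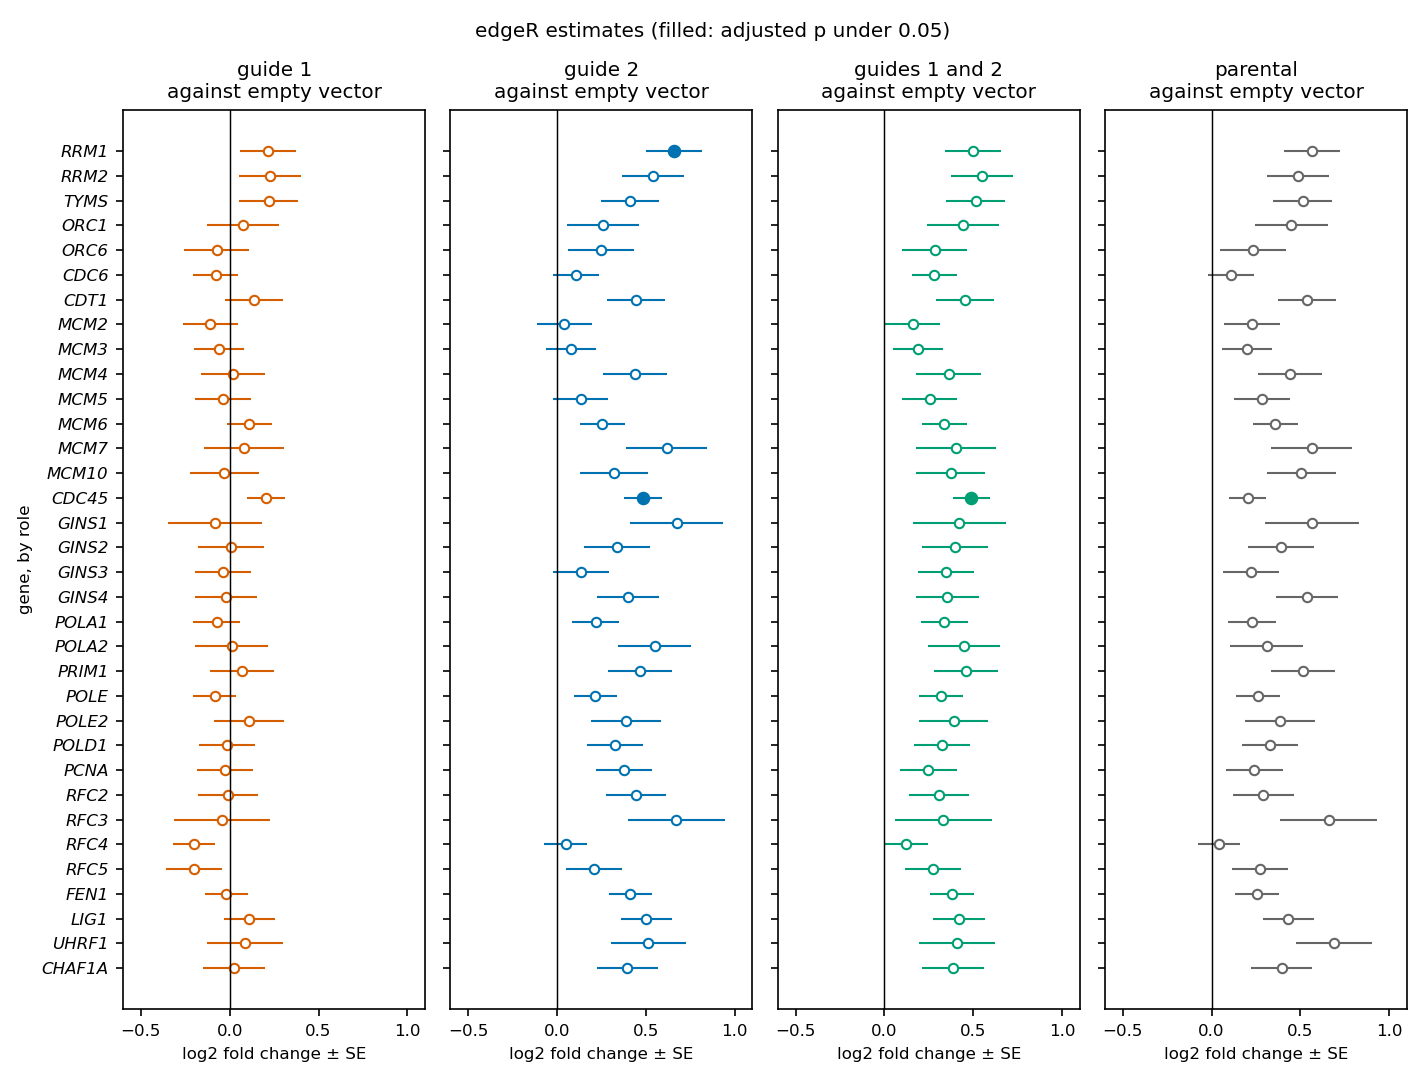
edgeR log2 fold changes of the 34 genes against the empty vector, 1 panel for each other genotype, with bars of 1 SE and filled points for an adjusted p under 0.05. Points lie on both sides of 0 with guide 1 and to the right of 0 in the other panels, with RRM1 and CDC45 filled with guide 2 and CDC45 with both guides.

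The highest and lowest genes differed by line. With guide 1 the highest were RRM2 (0.22), TYMS (0.22) and RRM1 (0.21), all of nucleotide synthesis, and the lowest were RFC4, RFC5 and MCM2 (-0.11). With guide 2 the highest were GINS1 (0.67), RFC3 (0.67) and RRM1, and the lowest MCM2 (0.04), RFC4 (0.05) and MCM3 (0.08). With both guides the highest were RRM2, TYMS (0.51) and RRM1 (0.50) and the lowest RFC4 (0.12), MCM2 (0.16) and MCM3 (0.19). In parental cells the highest were UHRF1, RFC3 (0.66) and GINS1 (0.57) and the lowest RFC4 (0.04), CDC6 and MCM3 (0.20). Some of these orders rest on 1 library. Without guide 2 replicate 2, GINS1 was at 0.25 and RFC3 at 0.24, and the highest with guide 2 were RRM2 (0.61), TYMS (0.51), CDC45 (0.50) and RRM1 (0.49). Without guide 1 replicate 3, the guide 1 values of RRM2, TYMS and RRM1 turned to -0.08, -0.05 and -0.02. Without parental replicate 1, UHRF1 stayed highest in parental cells at 0.63, while RFC3 stood at 0.47 and GINS1 at 0.34. All of these are edgeR log2 fold changes against the empty vector, and with all libraries only RRM1 and CDC45 with guide 2 and CDC45 with both guides passed the test.

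The empty-vector and parental cells are both unedited, so the comparison of edited with unedited cells depends on which is the control. The mean of the 3 edited genotypes against the mean of the 2 unedited ones gave 0 calls among the 34, where 1.51% of tested genes were called; 1 gene reached an unadjusted p under 0.05 (15.8% of tested genes) and DESeq2 called 1, CDC45 (5.33% of tested genes). The edgeR value for CDC45 was 0.29 (SE 0.0680, adjusted p = 0.0539), the highest of the 34, followed by RRM2 (0.19) and POLA2 (0.18), and the lowest were MCM2 (-0.08), RFC5 (-0.04) and RFC4 (-0.03). The median was 0.05 against 0.01 over all tested genes. Of 15 fits that each left out 1 library, 2 called CDC45 in this comparison. These were the fits without guide 1 replicate 3 (edgeR adjusted p = 0.0380) and without guide 2 replicate 2 (edgeR adjusted p = 0.00834). Both libraries were singled out for their levels of the 34 genes, and the shares of tested genes called there are not given here.

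Against parental cells, no replication gene passed the edgeR test in any edited line. The guide 1 line had a median of -0.33 against -0.00 over all tested genes, with 16 genes at an unadjusted p under 0.05 (19.9% of tested genes) and 0 DESeq2 calls, where 0.149% of tested genes were called by edgeR. Its lowest genes were RFC3 (-0.70), GINS1 (-0.65) and UHRF1 (-0.60), and its highest CDC45 (0.00), CDC6 (-0.19) and RFC4 (-0.25). The guide 2 line had a median of -0.00 against 0.02 over all tested genes, with 1 gene at an unadjusted p under 0.05 (7.37% of tested genes) and 0 DESeq2 calls, where 0.0516% of tested genes were called. It ran from ORC1 (-0.19), MCM2 (-0.19) and MCM10 (-0.18) up to FEN1 (0.16), POLA2 (0.24) and CDC45 (0.28). The line with both guides had a median of -0.01 against -0.02 over all tested genes, with 1 gene at an unadjusted p under 0.05 (9.98% of tested genes) and 0 DESeq2 calls, where 0.195% of tested genes were called. It ran from RFC3 (-0.33), UHRF1 (-0.28) and GINS4 (-0.18) up to POLA2 (0.14), CDC6 (0.17) and CDC45 (0.29). CDC45 was the gene with the highest fold change in each of these 3 comparisons with all libraries, and its edgeR adjusted p was 1.00, 0.543 and 0.355.

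Between edited lines, again no replication gene passed the edgeR test. Guide 1 against guide 2 gave a median of -0.34 against -0.01 over all tested genes, with 17 genes at an unadjusted p under 0.05 (15.2% of tested genes) and 0 DESeq2 calls, where 0.0401% of tested genes were called. The largest differences were in GINS1 (-0.76), RFC3 (-0.72) and MCM7 (-0.54), and the smallest in MCM3 (-0.14), MCM6 (-0.15) and MCM2 (-0.15). Without guide 2 replicate 2 the median was -0.22, with GINS1 at -0.35, RFC3 at -0.30 and MCM7 at -0.21. Guide 1 against both guides gave a median of -0.34 against 0.00, with 9 genes at an unadjusted p under 0.05 (13% of tested genes) and 0 DESeq2 calls, where 0.275% of tested genes were called. It ran from GINS1 (-0.51), RFC5 (-0.48) and POLA2 (-0.44) to MCM2 (-0.27), MCM3 (-0.25) and MCM6 (-0.23). Guide 2 against both guides gave a median of -0.01 against 0.03, with 0 genes at an unadjusted p under 0.05 (5.8% of tested genes) and 0 DESeq2 calls, where 0.149% of tested genes were called. It ran from GINS3 (-0.21), ORC1 (-0.19) and CDC6 (-0.17) to MCM7 (0.21), GINS1 (0.25) and RFC3 (0.34). Without guide 2 replicate 2, MCM7, GINS1 and RFC3 stood at -0.12, -0.16 and -0.08 in that comparison.

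The counts of calls changed when guide 1 replicate 3 was left out. Guide 1 replicate 3 lay above both other guide 1 libraries in 34 of 34 replication genes, where 41.7% of tested genes did so. Its log2 differences ran from 0.40 (CDC45) to 0.89 (UHRF1), with a median of 0.67. The 6 basal epithelial markers summed to 1294, 1432 and 1228 CPM in guide 1 replicates 1, 2 and 3, the third below both others. Leaving each library out in turn was one of the alternatives, but this library was singled out for its high levels of these same genes, so calls of lower levels without it are not independent of that choice. Without guide 1 replicate 3 the spread shared by all comparisons was smaller. The guide 1 line then had 6 genes lower than the empty vector, RFC5, RFC4, MCM2, MCM3, POLA1 and CDC6, where 3.69% of tested genes were called lower. Of these, RFC5 fell most, with an edgeR log2 fold change of -0.46 (SE 0.104, adjusted p = 0.0308), and the median of the 34 was -0.27. Against parental cells 28 genes were lower with guide 1 replicates 1 and 2 (4.58% of tested genes), with a median of -0.60. The largest were UHRF1 at -0.96 (SE 0.155, adjusted p = 0.00399) and GINS4 at -0.89 (SE 0.0956, adjusted p = 0.000414) in edgeR. By role, all 4 licensing genes, 5 of 6 MCM2-7 subunits, 6 of 6 polymerase and primase genes, 3 of 3 nucleotide synthesis genes and 2 of 5 clamp and loader genes were called lower. Against guide 2, 24 were lower (2.58% of tested genes), and against both guides 27 were lower (3.17% of tested genes).

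Without the same library, the genes called higher than the empty vector also grew in number, although the libraries compared were unchanged. These calls, too, are not independent of leaving out a library for its levels of these same genes, and they are no separate support. With guide 2, 11 genes were called (2.71% of tested genes): all 3 nucleotide synthesis genes, CDT1, MCM6, CDC45, GINS4, POLA2, FEN1, LIG1 and UHRF1. With both guides 12 were called (1.78%), from CDC6 at 0.29 (SE 0.0611, adjusted p = 0.0254) to RRM2 at 0.56 (SE 0.0847, adjusted p = 0.00635) in edgeR. In parental cells 15 were called (3.49%), led by UHRF1 at 0.70 (SE 0.135, adjusted p = 0.00999) in edgeR. Guide 2 replicate 2 was likewise singled out for its levels of these genes, so calls without it are not independent of that choice. Leaving out guide 2 replicate 2 gave 4 calls with guide 2, RRM1, RRM2, TYMS and CDC45 (5.04% of tested genes), and 2 with both guides, RRM1 and CDC45 (1.71%). It also gave 9 in parental cells (5.24%) and 6 lower with guide 1 than in parental cells, MCM4, GINS1, GINS4, RFC3, RFC5 and UHRF1 (7.47%). Leaving out parental replicate 1 left 0 calls in parental cells and the same 2 with guide 2, RRM1 and CDC45, and the CDC45 call with both guides was lost (edgeR adjusted p = 0.0580). With only the compared groups in the fit, 32 genes were higher with both guides than with the empty vector (7.12% of tested genes) and 15 in parental cells (3% of tested genes).

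Guide 2 replicate 2 and parental replicate 1 departed from their own replicates in an uneven way. Guide 2 replicate 2 lay above both other guide 2 libraries in 28 of the 34 genes, where 46.4% of tested genes did so, and parental replicate 1 above both others in 24, where 37.3% did so. Empty-vector replicate 3 lay above both others in nearly as many, 23, where 37.0% of tested genes did so. Its median log2 difference was 0.09, against 0.08 in parental replicate 1, and its highest departure was 0.28 (ORC6). The departures of guide 2 replicate 2 ran from -0.40 (TYMS) to 0.99 (RFC3) on the log2 scale, and those of parental replicate 1 from -0.15 (RFC4) to 0.62 (GINS1). RFC3, GINS1, MCM7, RFC2 and PCNA were among the 6 highest in both libraries, and TYMS and MCM5 were among the 3 lowest in both. Across the 34 genes the correlation of these departures was 0.861, and across all tested genes it was 0.654; genes of one library share its depth and its cells and are not independent replicates. Within these genotypes KRT14, a basal keratin, was highest in the same libraries. It was at 18.9, 1147 and 17.4 CPM with guide 2 and 545, 37.8 and 265 CPM in parental cells. The 6 basal markers summed to 9503 CPM in guide 2 replicate 2, against 1311 and 1383 CPM in the other guide 2 libraries. They summed to 5577, 1680 and 4327 CPM in parental cells. High sums were not limited to these libraries: the empty-vector libraries stood at 4714, 4958 and 9130 CPM. The part of these markers in the replication gene values was not tested.

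**Figure D4:**
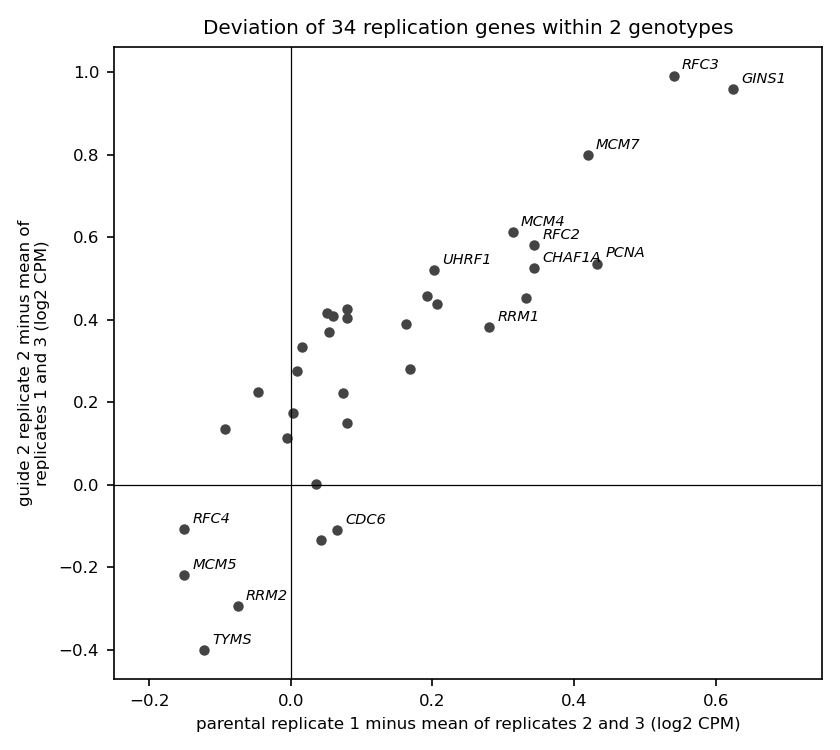
Each point is 1 of the 34 genes; the x axis is its log2 CPM in parental replicate 1 minus the mean of parental replicates 2 and 3, and the y axis the same for guide 2 replicate 2. RFC3, GINS1 and MCM7 lie at the upper right and TYMS and MCM5 at the lower left.

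Subunit ratios restate this unevenness in the same genes and libraries, so they are no separate support for it. Some, such as RFC3 to RFC4, set a gene with a large departure against a gene with a low one. MCM7 made up 26.5% of the summed MCM2-7 CPM in guide 2 replicate 2 and 23.2% in parental replicate 1, against 18.02% to 20.1% in the other 13 libraries. MCM4 made up 31.5% and 29.4% there, against 25.8% to 28.0%, while MCM5 made up 6.23% and 7.56%, against 8.64% to 9.71%. The ratio of RFC3 to RFC4 was 1.98 and 1.69, against 0.749 to 1.19 elsewhere. The ratio of GINS1 to GINS3 was 2.87 and 2.54, against 1.51 to 1.94, and that of RRM1 to RRM2 was 0.675 and 0.566, against 0.410 to 0.503. The ratio of PCNA to FEN1 separated less, at 2.48 and 2.53 against 2.06 to 2.34. Within the guide 1 line these ratios were closer: MCM7 made up 19.6% in replicate 3 against 18.99% and 18.6% in replicates 1 and 2. The ratio of RFC3 to RFC4 was 0.991 in replicate 3 against 0.905 and 0.799, and that of GINS1 to GINS3 was 1.55 against 1.51 and 1.51.

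Other genes of replication and nucleotide synthesis, 52 in 3 lists, were measured beside them. Of all 17457 tested genes, 228, 210 and 267 were called higher than the empty vector with guide 1, guide 2 and in parental cells. Of 30 further initiation and fork genes, 1 rose with guide 2 and 1 in parental cells, in both cases CDC7, the kinase that fires origins, by 0.58 (SE 0.138, adjusted p = 0.0342) and 0.58 (SE 0.138, adjusted p = 0.0352) in edgeR. CDC7 stood at 27.4, 28.9 and 26.9 CPM in the empty vector, 38.3, 47.2 and 40.4 CPM with guide 2 and 41.1, 42.002 and 43.8 CPM in parental cells. Of 14 further nucleotide synthesis genes, 1 rose with guide 1, guide 2 and in parental cells alike, IMPDH2, an enzyme of guanine nucleotide synthesis. Its levels were 229.6, 236 and 199 CPM in the empty vector and 286, 300.5 and 277 CPM with guide 1, and its edgeR log2 fold changes were 0.37, 0.30 and 0.35 (adjusted p = 0.00957, 0.0285 and 0.0151). None of 8 further replication-coupled chromatin genes passed in any comparison. With guide 2 the medians were 0.24 for initiation and fork genes, 0.19 for nucleotide synthesis and 0.30 for chromatin genes, against 0.39 for the 34.

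Mitotic genes and G1/S regulators were measured for comparison, and their difference from the 34 was not tested. Of 15 mitosis genes, 2 rose with guide 2, CDK1 at 0.86 and TOP2A at 0.81, and 5 rose in parental cells, led by CENPF at 1.04 and TOP2A at 0.91 (edgeR adjusted p = 0.0211, 0.0445, 0.0274 and 0.0264). Of all 17457 tested genes, 210 were called higher with guide 2, and 267 higher and 495 lower in parental cells. The mitosis medians were 0.65 with guide 2 and 0.73 in parental cells. With both guides the mitosis median was 0.58, and 0 of the 15 were called (0.269% of tested genes higher). Of 16 G1/S regulators, CDKN1A, which encodes the CDK inhibitor p21, fell in parental cells, with an edgeR log2 fold change of -1.20 (SE 0.277, adjusted p = 0.0304), and CDKN1B rose by 0.45 (edgeR adjusted p = 0.0206). CDKN1A stood at 325, 327 and 168 CPM with guide 1, 264, 269 and 255 CPM in the empty vector and 176, 182 and 186 CPM with both guides. It stood at 193, 89.95 and 200.2 CPM with guide 2 and 109, 129.5 and 113 CPM in parental cells. The libraries with the lowest replication gene levels were thus those with the highest CDKN1A, and guide 1 replicate 3 was again unlike its replicates; whether these move together beyond the genotypes was not tested.

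**Figure D5:**
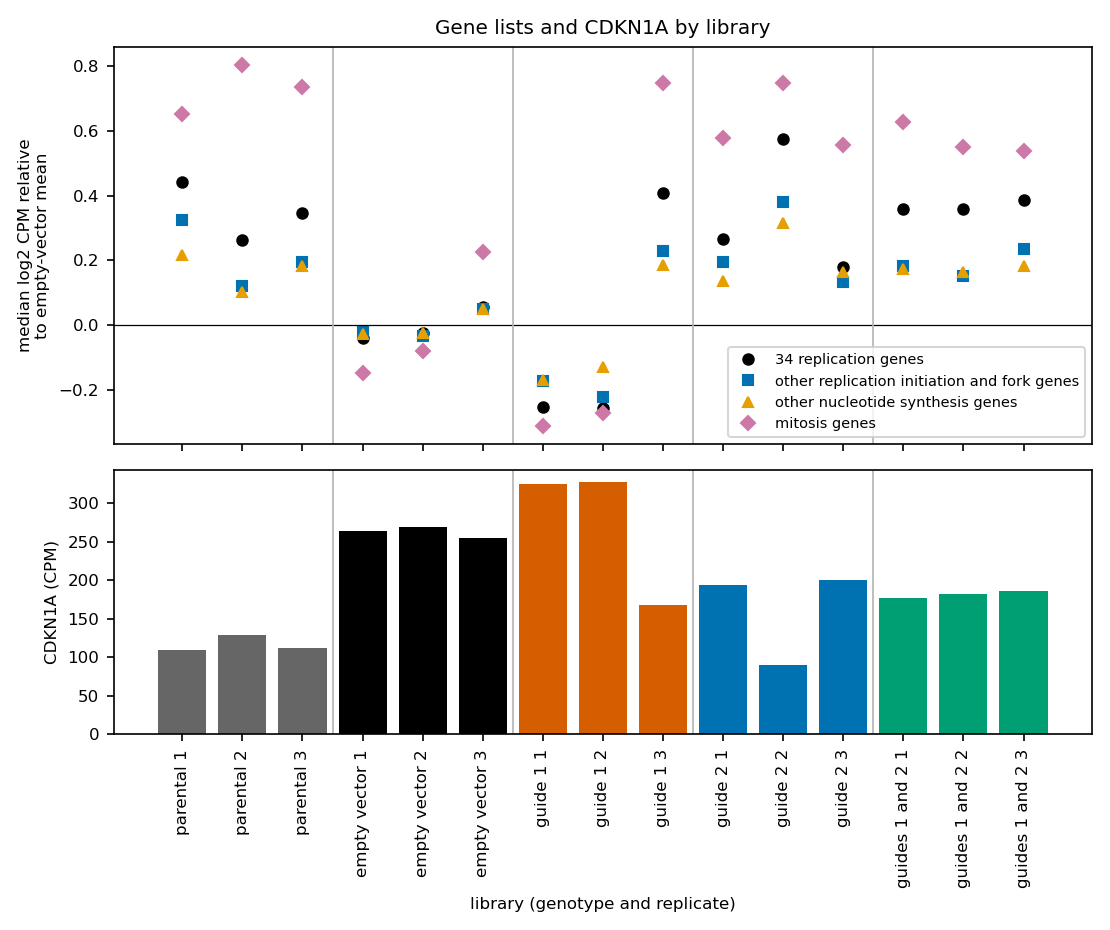
Above, the median over each gene list of log2 CPM relative to the empty-vector mean, for each of the 15 libraries; below, CDKN1A in CPM for the same libraries, with bars from 0. Guide 1 replicates 1 and 2 have the lowest medians and the tallest CDKN1A bars, and the mitosis genes lie above the 34 replication genes in the 10 libraries with raised medians.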

How the data were processed

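The authors deposited whole-number read counts per gene for 15 libraries and a second table in CPM, the same counts scaled to the library total, with Ensembl gene identifiers. CPM recomputed here from the counts differed from the deposited values by at most 4.91e-11. The submitters' processing notes name GRCh38, Trim Galore 0.6.0 and STAR 2.7.8a; the counter, annotation and strand setting are not given in the sources used here. Per the labels' protocols, poly(A) RNA libraries were prepared with a KAPA mRNA kit after RNeasy extraction.

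The counts were tested with edgeR 4.0.16 in R 4.3.3: filterByExpr by genotype, TMM scaling, 1 group-means quasi-likelihood model over the 15 libraries with 10 residual degrees of freedom, two-sided tests and Benjamini-Hochberg adjustment over 17457 genes. A gene was called at an adjusted p under 0.05. Standard errors were taken as the size of the log2 fold change over the square root of F. Log2 CPM within genotypes used a prior count of 2. The procedure was tested on simulated counts, in which fold changes were recovered without marked bias and strongly dispersed genes were often missed, so 0 calls do not show that genes did not differ. Exon lengths and overlaps come from GENCODE release 29 and promoters from RefSeq GRCh38.p14.

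Alternatives were RLE scaling, no filter on low counts, the replicate number as a block, DESeq2 1.42.0, only the compared groups in the fit, and each library left out in turn. Replicate numbers come from the labels, which do not say that a number marks a shared batch. Same-numbered libraries of different genotypes had a mean correlation of deviations of -0.05 over 30 pairs. Of the 10 pairs of genotypes, only guide 1 and the empty vector had every correlation over 0.1 (mean 0.201, lowest 0.136). Correlations over 0.1 occurred in 8 of 30 same-numbered pairs of libraries and in 16 of 60 pairs with different numbers. The reported model held no block for any comparison. For guide 1 against the empty vector, the model with the block called 0 of the 34 genes, as did the model without it.

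The rule for the 34 genes uses no measured value, but they, the comparison lists and the tests were chosen with earlier results of these data known. By rule, 17 genes that stand for the roles were given library by library, with the 3 highest and 3 lowest in each comparison, every called gene, and outside the 34 at most 2 called genes a list.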

Additional observations from a re-analysis of the deposited data

How the results depend on the processing

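The number of replication genes called depended on how the spread was estimated. With guide 2 against the empty vector the 2 calls became 1 with the replicate block (CDC45) and 0 with only the compared groups in the fit. They became 4 with DESeq2 (RRM1, CDC45, FEN1 and LIG1). The shares of tested genes called with the block and with DESeq2 are not given here for guide 2. The 1 and the 4 can thus not be read against all genes. With both guides the 1 call became 0 without a filter on low counts and 0 with the replicate block. It became 32 with only the compared groups in the fit, where 7.12% of tested genes were called higher. In parental cells the 0 calls became 4 with DESeq2 (10.1% of tested genes in either direction) and 15 when the fit held only these groups (3% of tested genes higher). The edited mean against the control mean went from 0 calls to 1 with DESeq2 (5.33% of tested genes in either direction). The replicate block changed no other count of calls.
Leaving out each library in turn, the calls ranged from 0 to 6 for guide 1, from 0 to 11 for guide 2, from 0 to 12 for both guides and from 0 to 15 for parental cells against the empty vector, and from 0 to 1 for the edited mean. For the edited mean the 1 was CDC45, without guide 1 replicate 3 or without guide 2 replicate 2. The 6, 11, 12 and 15 were reached without guide 1 replicate 3, a library singled out for its levels of these same genes. There 3.69% of tested genes were called lower with guide 1, and 2.71%, 1.78% and 3.49% higher in the other lines. Calls ranged from 0 to 28 for guide 1 against parental cells, 0 to 24 against guide 2 and 0 to 27 against both guides. Each was highest without guide 1 replicate 3, where 4.58%, 2.58% and 3.17% of tested genes were called lower. Median log2 fold changes ranged from -0.27 to 0.12 for guide 1, 0.19 (without guide 2 replicate 2) to 0.44 for guide 2, 0.33 to 0.39 for both guides and 0.34 to 0.38 for parental cells against the empty vector. They ranged from -0.60 to -0.22 for guide 1 against parental cells, -0.61 to -0.21 against guide 2 and -0.61 to -0.23 against both guides. Over the single genes, alternatives kept the side of the threshold in 7141 cases, with uncalled values within their SE of the reported one, passed it anew in 194, lost it in 31 and moved an uncalled value by more than its SE in 80; the cause was not tested.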
